A study of Danaus plexippus with 36 samples.

Results

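In monarch butterflies (Danaus plexippus), 98 genes of the 15130 in the count table were abundant in legs and proboscis and nearly absent from antennae. They were chosen on their mean level in CPM, the count of a gene per 1000000 counts of its library (1 M). After 0.1 CPM was added to each tissue mean, a member had at least 10 CPM in legs and in proboscis, at least 32 times the antennal mean in both, and a leg and a proboscis mean within less than 4-fold of each other. The differences between the tissues therefore chose the members, and they are given below as a description, without a test.

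The animals were field-caught adults, 6 gravid females and 6 males, dissected into antennae, legs and proboscis. Each of 2 labelled batches held 3 females and 3 males, and what a batch stands for is not said in the labels. The 35 libraries were 11 of antennae, 12 of legs and 12 of proboscis, each from 1 animal, and the antennae of male 2 were not analysed here. There was no treatment, and because every female was gravid, sex and reproductive state cannot be told apart.

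The antenna of a butterfly is mainly an organ of smell. The legs and the proboscis carry contact taste sensilla, and both are moved by muscles that lie inside them, whereas the long outer part of an insect antenna, the flagellum, has none of its own. The identifiers of the members (DPOGS numbers) matched 0 entries of the RefSeq gene table used here, and the count table gives no gene names. The members are therefore described by identifier alone, without a function or a location, and lists of muscle, cuticle, nerve and taste genes could not be applied. The labelled tissues could not be checked against marker genes for the same reason.

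The 98 genes took 24.9% to 44.5% of all counts of a leg library (mean 32.98% ± 6.93, SD, n = 12). In proboscis they took 13.9% to 38.4% (25.3% ± 6.22, SD, n = 12). In antennae their share was 0.0870% to 0.362% (0.164% ± 0.0848, SD, n = 11). No antennal library came near a leg or proboscis library, and the lowest value outside antennae was that of the proboscis of male 2. The 11 genes with the most counts in legs were all members, and members made up 39 of the 100 most counted genes in legs, 32 of 100 in proboscis and 0 of 100 in antennae. A large count can reflect a long gene as well as a high level, since gene lengths were not used. In these bulk samples, fewer cells of a type and less RNA per cell cannot be told apart. The antennal libraries also had the lowest median total, 5.498 M counts (range 0.622 to 24.7 M), against 25.4 M in legs (11.7 to 117 M) and 13.2 M in proboscis (1.92 to 53.7 M).

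**Figure D1:**
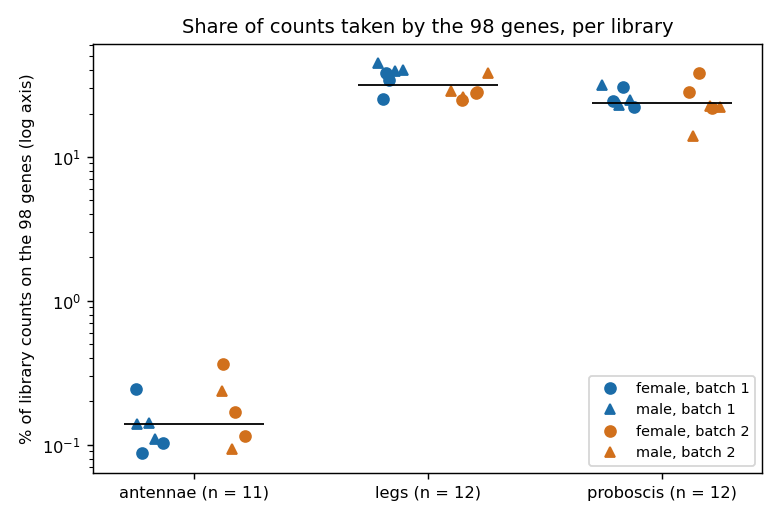
Share of each library's counts (percent, log axis) that fell on the 98 genes, by tissue. Circles are females and triangles males, blue is batch 1 and orange batch 2, and the black line is the median of the tissue. All 11 antennal libraries lie at 0.362% or below and all 24 others at 13.9% or above.

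Leg means of the members ran from 15.6 to 30568 CPM (median 835 CPM) and proboscis means from 11.1 to 33064 CPM (median 511 CPM). Antennal means ran from 0 to 309 CPM (median 2.55 CPM). They were below 1 CPM for 33 members and at or above 10 CPM for 27. The ratio of legs to antennae, with the 0.1 CPM added, had a median of 257 and a maximum of 9135, and that of proboscis to antennae a median of 155 and a maximum of 5290. Of the 98 members 83 had a higher mean in legs than in proboscis and 15 a lower one. For 86 members (87.8%) every leg and every proboscis library lay above every antennal library. Over all 15130 genes 1.12% had that order, a share that only describes how the members were picked. Within the 11 animals with all 3 tissues, 61 to 94 members (median 87) were at least 32 times higher in both the legs and the proboscis than in the antennae of the same animal. Female 11, whose antennal library was the shallowest, had the lowest number, and 97 or 98 members lay above the antennae in every animal.

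The members with the largest joint leg and proboscis level were DPOGS206365 and DPOGS207542. DPOGS206365 ran from 9535 to 55079 CPM in legs (median 28043), from 6834 to 41739 CPM in proboscis (median 29010) and from 1.70 to 185 CPM in antennae (median 44.2). DPOGS207542 ran from 77.7 to 78584 CPM in legs (median 25535), from 40.9 to 52951 CPM in proboscis (median 28823) and from 0.191 to 90.1 CPM in antennae (median 5.65). Their mean levels were nearly equal, but DPOGS207542 overlapped its antennal range in 2 libraries, the legs and the proboscis of male 2. The members with the highest antennal means were DPOGS211795, at 309 ± 253 CPM (SD, n = 11) in antennae against 20365 ± 8850 in legs and 33064 ± 12387 in proboscis (SD, n = 12), and DPOGS207167, at 249 ± 152 CPM in antennae against 23475 ± 15027 in legs and 10900 ± 6016 in proboscis. Both were thus detected in antennae in every library, at 44.6 CPM or more.

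Some members varied little between animals. DPOGS207155 stayed between 8078 and 13110 CPM in the 12 leg libraries and between 5125 and 10247 CPM in the 12 proboscis libraries, a 2.56-fold range over all 24. DPOGS208354 had a 3.43-fold range, from 199 to 467 CPM in legs and from 327 to 685 CPM in proboscis. These were the most even members. For 34 of the 98 (34.7%) the highest leg or proboscis library was less than 10 times the lowest, against 56.5% of all 6033 genes with leg and proboscis means of at least 10 CPM. The median ratio was 14.5 over the members and 8.57 over those genes. For 10 members the ratio was 1000 or more or the lowest library had no count. Among the 6033 genes 173 (2.87%) had so wide a range.

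Near the thresholds, the lowest leg level inside the rule (with 0.1 CPM added, as for all values here) was 15.7 CPM (DPOGS208353) and the nearest gene left out on this point alone had 5.602 CPM (DPOGS208352). For proboscis the values were 11.2 CPM (DPOGS207156) inside and 9.02 CPM (DPOGS203843) outside. The smallest ratio of legs to antennae inside was 36.9 (DPOGS208996) and the nearest outside 18.1 (DPOGS207749), and for proboscis to antennae 32.4 (DPOGS211070) and 30.8 (DPOGS206601). The largest difference between legs and proboscis inside was 3.99-fold (DPOGS207337), and the nearest gene outside differed 4.47-fold (DPOGS212151). Between 2 and 10 genes failed each of these criteria alone, and genes that failed several were not counted.

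Some members had neighbouring identifiers. Of the 98, 36 (36.7%) fell into 16 runs of consecutive numbers, 13 of them pairs and the longest a run of 4. No such share is given for other sets of genes. The identifiers next to a member included 147 genes that were not members. Of these, 11 (7.48%) reached 10 CPM in legs and proboscis and at least 4 times the antennal level in both, against 149 of all 15032 genes that were not members (0.991%). Whether the numbers follow the order of the genes in the genome is not given in the sources used here, and whether neighbours share reads was not tested. The runs with the highest levels were DPOGS206364 with DPOGS206365 and DPOGS207541 with DPOGS207542. Levels within a run could be far apart: DPOGS206364 averaged 35.2 ± 30.4 CPM in legs (SD, n = 12) beside the 30568 ± 13865 CPM of DPOGS206365.

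Legs of the 2 batches were compared first among the measures that the choice of members had not used directly. The rule averaged over both batches, so a gene could meet it through 1 batch alone. In legs 32 of the 98 members (32.7%) differed between batches, 21 lower and 11 higher in batch 2 (edgeR quasi-likelihood test with sex as a term, Benjamini-Hochberg adjusted p below 0.05 over 10598 genes). Of all genes tested 44.8% differed, 22.6% lower and 22.3% higher in batch 2, so the share among the members was no larger than that of genes at large. Their median log2 fold change (batch 2 over batch 1) was -0.14, against 0.15 over all genes tested. The leg libraries of batch 2 held 35.6 to 117 M counts and those of batch 1 11.7 to 15.2 M, so batch and depth cannot be told apart in legs. With every leg library thinned to the smallest one, the same numbers of members, 21 and 11, were called lower and higher. Thinning keeps the expected share of each gene, so it evens out counting error only and cannot separate depth from batch.

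The 21 members that were lower in batch 2 legs split into 8 with a difference of at least 16-fold, with log2 fold changes from -10.64 to -4.14, and 13 with smaller ones, from -3.60 to -0.94. Differences of at least 16-fold downward were found for 8.16% of the members and 2.95% of all genes tested. All 8 fell outside the rule in batch 2 alone. Their membership thus rested on batch 1, where they were high, and the 2 shares are a description. DPOGS207541 had 1029 to 2459 CPM in batch 1 legs (median 1860) and 0.721 to 2.39 CPM in batch 2 legs (median 1.43), or -10.64 ± 0.56 (SE) as a log2 ratio (adjusted p = 9.50e-08). DPOGS209333 had 883 to 2514 CPM (median 1633) and 1.81 to 17.5 CPM (median 5.80), or -8.21 ± 0.73 (SE) as a log2 ratio (adjusted p = 5.50e-06). Of the 8 members, 6 stood in runs of consecutive identifiers. For all 8 the 6 leg libraries of batch 2 lay below the 6 of batch 1. The 8 were picked on the size of this difference, and the share of all genes with that order was not computed. Together the 8 genes took 1.78% to 4.95% of the counts in batch 1 legs and 0.00599% to 0.253% in batch 2 legs. The other 90 members took 33.9% ± 5.70 of the counts in batch 1 legs and 28.8% ± 4.59 in batch 2 legs (SD, n = 6 each), ranges that overlapped.

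The 11 members that were higher in batch 2 legs moved far less, by 0.72 to 1.29 on the log2 scale. DPOGS207156 had 9.105 to 27.2 CPM in batch 1 legs (median 18.6) and 33.3 to 184 CPM in batch 2 legs (median 41.0), or 1.29 ± 0.36 (SE) as a log2 ratio (adjusted p = 0.0119). Its batch 2 mean was 65.2 CPM, and 41.3 CPM without male 2. DPOGS215550 had 219 to 337 CPM in batch 1 legs (median 285) and 347 to 1466 CPM in batch 2 legs (median 750), or 1.25 ± 0.30 (SE) as a log2 ratio (adjusted p = 0.00596). Neither gene overlapped between the batches. DPOGS207156 closes the longest run of identifiers, and DPOGS207153, which opens it, went the other way, from 254 to 529 CPM in batch 1 legs to 0.112 to 6.15 CPM in batch 2 legs (log2 fold change -7.87 ± 0.93, SE, adjusted p = 5.31e-05).

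**Figure D2:**
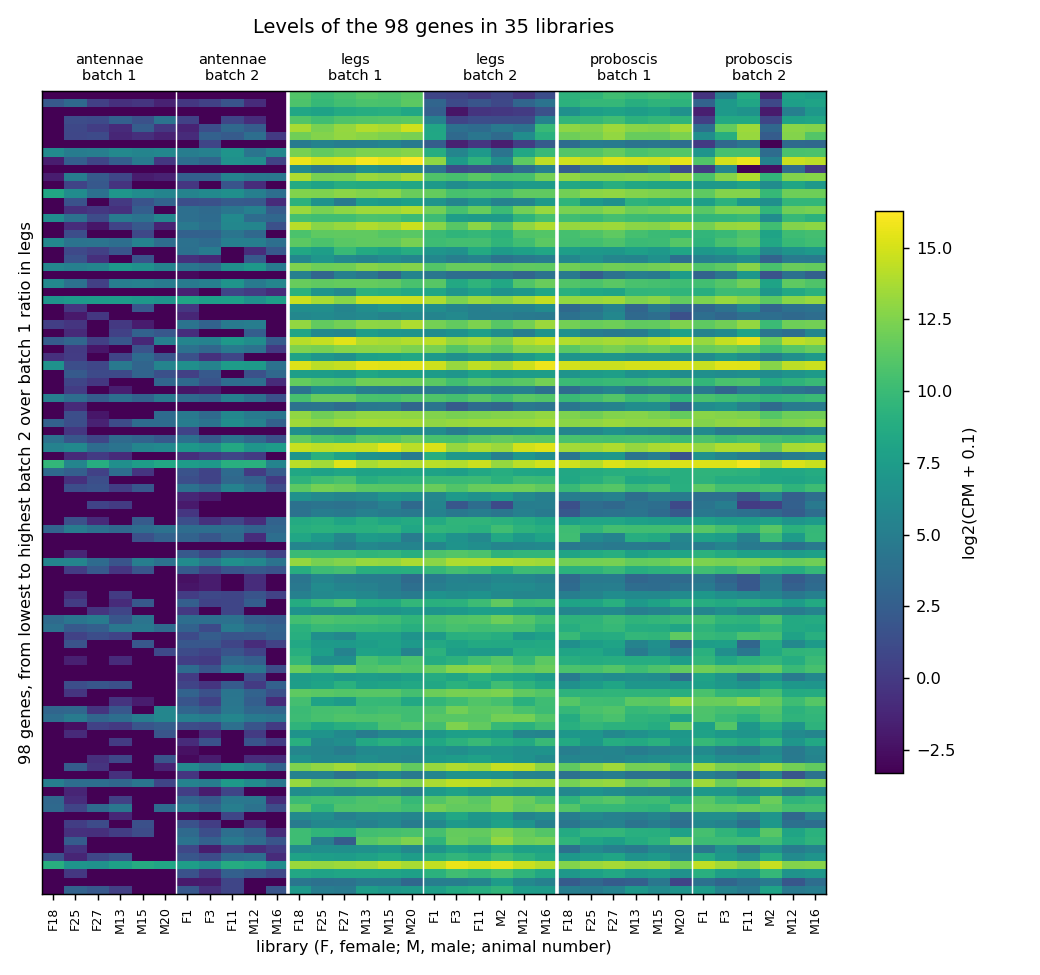
Level of the 98 genes, log2(CPM + 0.1), in the 35 libraries, 1 row per gene and 1 column per library, ordered by tissue, batch and sex. Rows are sorted by the fitted batch difference in legs, so that the 8 genes at the top are those at least 16-fold lower in batch 2 legs, and the same rows are low in the proboscis of female 1 and male 2.

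In proboscis no member passed the test between batches (edgeR, 0 of 98 called). An unadjusted edgeR p below 0.05 was found for 2 members, and for 4% of all genes tested. DESeq2 called 0 members as well. Of all 10416 genes tested edgeR called 0% and DESeq2 0.134%. The member with the smallest p was DPOGS215443, with 666 to 2090 CPM in batch 1 and 1451 to 3389 CPM in batch 2, ranges that overlapped (log2 fold change 1.00 ± 0.41, SE, adjusted p = 0.942). The 8 members that were so much lower in batch 2 legs had proboscis log2 fold changes of -2.28 to -0.37, none of which passed. DPOGS207541 ran from 646 to 1216 CPM in the proboscis of batch 1 (median 861) and from 0.287 to 454 CPM in that of batch 2 (median 114). DPOGS209333 ran from 495 to 860 CPM (median 652) and from 1.84 to 310 CPM (median 184). In proboscis the 2 lowest of the 12 libraries were those of female 1 and male 2 for all 8 members, and the other 4 libraries of batch 2 lay above them. How many of all genes had that order was not computed. Both named genes kept every batch 2 library below every batch 1 library in proboscis too, but batch 2 was spread over a far wider range there than in legs.

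**Figure D3:**
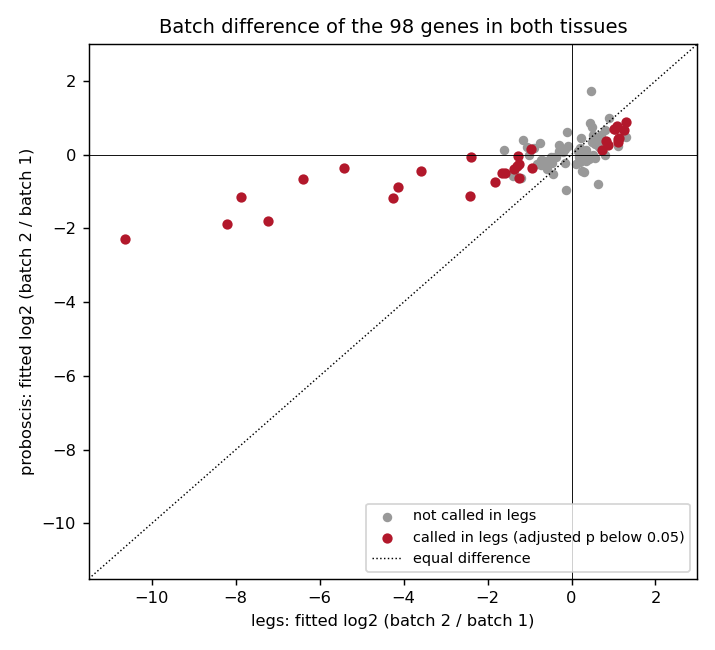
Fitted log2 ratio of batch 2 to batch 1 in legs (horizontal) and in proboscis (vertical) for the 98 genes, red where the leg difference passed the test. The dotted line marks equal differences. The 8 red points farthest to the left run from -10.64 to -4.14 in legs and from -2.28 to -0.37 in proboscis.

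The difference between the tissues was tested directly as a batch by tissue term over the 24 leg and proboscis libraries. It passed for 2 members (2.04%), DPOGS207541 and DPOGS209333, against 0.0725% of the 11034 genes tested. Both were among the 8 whose membership rested on batch 1, so these shares are a description. The batch difference of DPOGS207541 was higher in proboscis than in legs by 8.25 ± 1.49 (log2, SE, edgeR adjusted p = 0.0397) and that of DPOGS209333 by 6.24 ± 1.18 (adjusted p = 0.0464). With the animal as a block, which the shared animals call for, neither passed (edgeR adjusted p = 0.234 for both, log2 difference 6.37 and 5.46). Leaving out 1 animal ended both calls in 10 of 12 cases, all but female 1 and male 2, with adjusted p-values of 0.0634 to 0.504 for DPOGS207541 (edgeR). DESeq2 called 6 members, 3.60% of all genes being called by it.

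For 5 of the 8 members that were at least 16-fold lower in batch 2 legs, the level also separated deep from shallow libraries, an order noticed after the values were seen. Of the 24 leg and proboscis libraries 9 held 35.6 M counts or more, the 6 legs of batch 2 and the proboscis of female 1, female 3 and male 2. The other 15 held 19.2 M or fewer. DPOGS207541 was at 0.287 to 36.6 CPM in the 9 deep libraries and at 192 to 2459 CPM in the 15 others. DPOGS209333 was at 1.81 to 150 CPM and at 218 to 2514 CPM. DPOGS208212, one of the 8 and chosen after its values were seen, was at 9.09 to 3183 CPM and at 4990 to 30125 CPM. For 5 members (5.10%), all among these 8, every deep library lay below every other one, and 3.14% of all genes tested had that order. Membership of the 8 rested on batch 1, which held no deep library, so these shares are a description. The other 3 of the 8, DPOGS205413, DPOGS205414 and DPOGS207153, overlapped, and DPOGS205413 reached 362 CPM in a deep library and was as low as 252 CPM in a shallower one. Within the proboscis of batch 2 alone, 8 members (8.16%) had the 3 deep libraries below the 3 others and 26 (26.5%) had them above, close to the shares among all genes tested, 10.1% and 24.6%. The part of depth in the batch differences of the members was not tested, since the thinning above evens out counting error only.

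**Figure D4:**
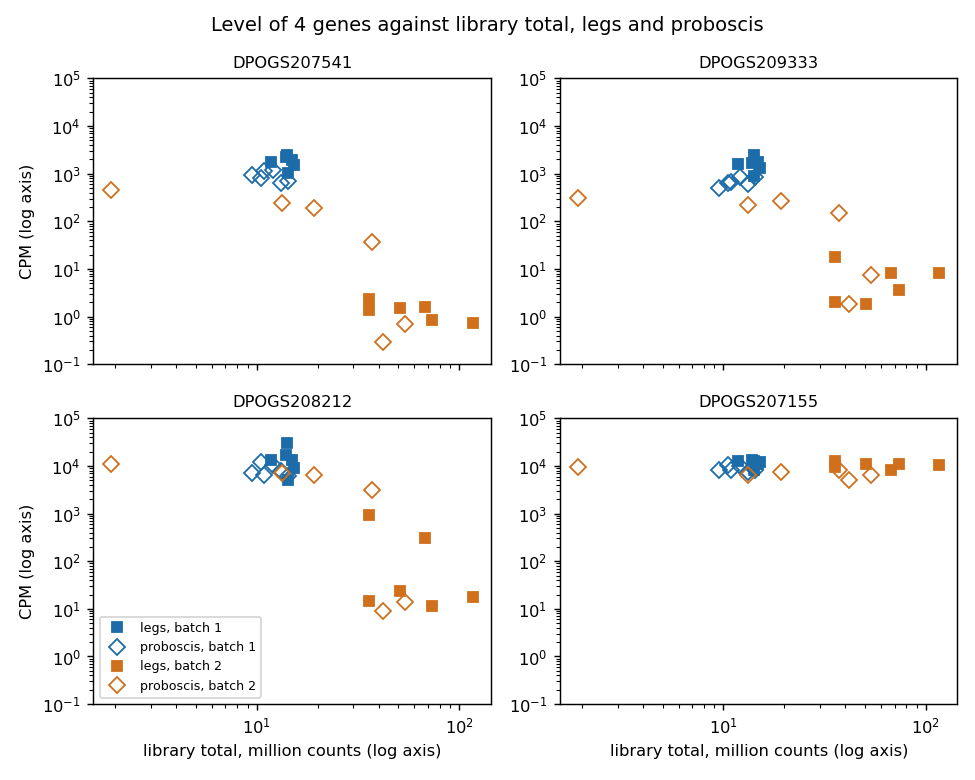
CPM of 4 of the 98 genes against the library total (M counts), both on log axes, in legs (filled squares) and proboscis (open diamonds), blue for batch 1 and orange for batch 2. DPOGS207541, DPOGS209333 and DPOGS208212 lie lower in the 9 libraries of 35.6 M counts or more, and DPOGS207155, the most even member, stays between 5125 and 13110 CPM.

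The order of the batch 2 animals was not the same in legs and proboscis for DPOGS208212. Female 11 was lowest in legs, at 11.5 CPM, and highest in proboscis, at 11023 CPM. Male 2 was lowest in proboscis, at 9.09 CPM, but not in legs, at 24.2 CPM, and female 1 was not among the lowest in legs. In the legs of batch 2, DPOGS208212 was highest in male 16, at 923 CPM, and in female 1, at 305 CPM, and the other 4 legs had 11.5 to 24.2 CPM. In the proboscis it was lowest in male 2, at 9.09 CPM, and in female 1, at 14.03 CPM, and the other 4 of batch 2 had 3183 to 11023 CPM. DPOGS209334, whose number follows that of DPOGS209333 and which was also picked after its values were seen, had 4980 to 13810 CPM in batch 1 legs and 7323 to 15258 CPM in batch 2 legs, and its batch difference did not pass (log2 fold change 0.21 ± 0.35, SE, adjusted p = 0.636). The 2 consecutive genes DPOGS209333 and DPOGS209334 thus had unlike values in the same libraries.

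Sexes were compared within legs and within proboscis with batch as a term, and no member passed in either. In legs edgeR called 0 of 98 members and 0.0283% of all genes, and DESeq2 called 0 members and 0.585% of all genes. An unadjusted edgeR p below 0.05 was found for 17 members and for 6.32% of all genes. In proboscis edgeR called 0 of 98 members and 0% of all genes, and DESeq2 called 0 members and 0% of all genes. There the unadjusted edgeR p was below 0.05 for 4 members and for 0.902% of all genes. The fitted values leaned in opposite directions: 76 members were lower in females in legs (median log2 fold change female over male -0.42, -0.00099 over all genes), and 87 were higher in females in proboscis (0.36, -0.04 over all genes). Of all genes tested 49.8% were higher in females in legs and 45% in proboscis. Within batches, by mean CPM, 57 members of batch 1 and 58 of batch 2 were lower in female legs, and 63 and 72 were higher in female proboscis. The share of all genes was not computed for these counts, and all lay closer to an even split than the fitted 76 and 87. The sex by tissue term called 0 members and 0% of all genes with edgeR. Of the members 14, and of all genes 1.68%, had an unadjusted edgeR p below 0.05. Members share libraries, so such counts are not independent. DESeq2 called 0 members and 0.00906% of all genes.

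The share of counts taken by the members overlapped between the sexes in most groups. In legs the members took 29.8% ± 5.39 of counts in females and 36.2% ± 7.20 in males (SD, n = 6 each), and in proboscis 27.6% ± 6.32 and 22.9% ± 5.66. In batch 1 legs the 3 females had 25.3% to 38.3% and the 3 males 39.6% to 44.5%, while in batch 2 legs the ranges overlapped, at 24.9% to 28.1% and 25.99% to 38.0%. In proboscis they overlapped in batch 1, at 22.1% to 30.7% in females and 22.8% to 31.5% in males, and in batch 2, at 21.9% to 38.4% and 13.9% to 22.4%. The means of proboscis ran in opposite directions in the batches, 25.7% in females and 26.4% in males of batch 1 against 29.5% and 19.4% in batch 2, where the highest female share was that of female 11, in a library of 1.92 M counts. DPOGS206957 was the member with the smallest p for sex in legs and also in proboscis. In legs it had 119 to 548 CPM in females (median 205) and 27.4 to 124 CPM in males (median 83.2), or 1.61 ± 0.45 (SE) as a log2 ratio (adjusted p = 0.528). In proboscis it had 20.8 to 142 CPM in females (median 74.1) and 2.95 to 40.9 CPM in males (median 24.6), or 1.68 ± 0.57 (SE) as a log2 ratio (adjusted p = 1.00). The sexes overlapped in both tissues. For the sex by tissue term the smallest p was that of DPOGS205005, with a log2 difference of 1.16 ± 0.38 (SE, adjusted p = 1.00).

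What remained of the members in antennae was small and uneven. Without any antennal count were 4 members, and 2 more had 1 to 3 counts among 79.3 M antennal counts. DPOGS207541 had 0 counts in all 11 antennal libraries, and its summed level was at least 8758-fold higher in legs and at least 8003-fold higher in proboscis, computed against a floor of 3 counts over all antennae. The leg value came almost wholly from batch 1, and against the same floor the legs of batch 2 alone were at least 32.2-fold higher and the proboscis of batch 2 at least 1456-fold. DPOGS207153 also had 0 counts there, at least 1856-fold below legs and at least 2439-fold below proboscis. For it the legs of batch 2 alone were at least 50.3-fold higher. These bounds cover counting error only.

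Counts of the members in antennae were compared between batches after the values were seen. A count was found for 31 to 74 members in each of the 6 antennal libraries of batch 1 and for 60 to 91 in each of the 5 of batch 2, although the median library was shallower in batch 2 (2.24 M against 6.66 M counts). In batch 1 23 members had a count in every antennal library and 15 in none, and in batch 2 54 members had one in every library and 5 in none. As shares of the 98, 23.5% and 55.1% had a count in every library and 15.3% and 5.10% in none. Over all 15130 genes the batches were close, with 50.8% and 50.2% counted in every library and 14.7% and 15.9% in none. The members were chosen for low antennal means, and genes of like antennal level were not compared. DPOGS207336 had 0 to 4.99 CPM in the antennae of batch 1 (median 0.136 CPM) and 7.57 to 80.4 CPM in those of batch 2 (median 41.1 CPM), without overlap. Its log2 fold change of 6.06 ± 1.13 (SE) did not pass with edgeR (adjusted p = 0.296), passed with DESeq2 (adjusted p = 2.33e-06) and passed with edgeR without female 25, the highest of batch 1 (adjusted p = 0.0447). For 6 members (6.12%) every batch 2 antenna lay above every batch 1 antenna, against 0.165% of all 15130 genes, again without a match on antennal level. Only 50 of the 98 members had enough antennal counts to be tested. Of these edgeR called 0 (0.00996% of all 10037 genes tested), and DESeq2 called 12, all higher in batch 2 (0.976% of all genes). An unadjusted edgeR p below 0.05 was found for 18 of the 50 and for 7.51% of all genes tested. A gene with no counts in one batch passes the filter only through the other, so the 50 are not a fair sample of the 98.

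The antennal levels were also set against the leg levels of the same batch. The antennal mean of a member was 0.175% of its leg mean in batch 1 (median of 98 members, quartiles 0.0133% and 0.923%) and 0.453% in batch 2 (quartiles 0.292% and 0.972%). The upper tail was wider in batch 2, with a 90th percentile of 3.11% and a maximum of 16.8%, against 1.62% and 2.82% in batch 1. A high percentage can come from a low leg mean. The maximum was that of DPOGS209333, with a leg mean of 1621 CPM in batch 1 and 6.88 CPM in batch 2. Its antennal level was not higher in batch 2, at 0 to 3.22 CPM against 0.271 to 10.1 CPM in batch 1. The rule had capped the antennal mean at a fixed part of the leg mean over both batches, so these values are a description. Across the 98 members, which share libraries and are not replicates and were chosen on these same levels, the rank correlation of antennal and leg means was 0.659 in batch 1 and 0.907 in batch 2. The depth of the leg libraries moved with this as well, at 11.7 to 15.2 M counts in batch 1 and 35.6 to 117 M in batch 2, and its part in the antennal values was not tested.

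**Figure D5:**
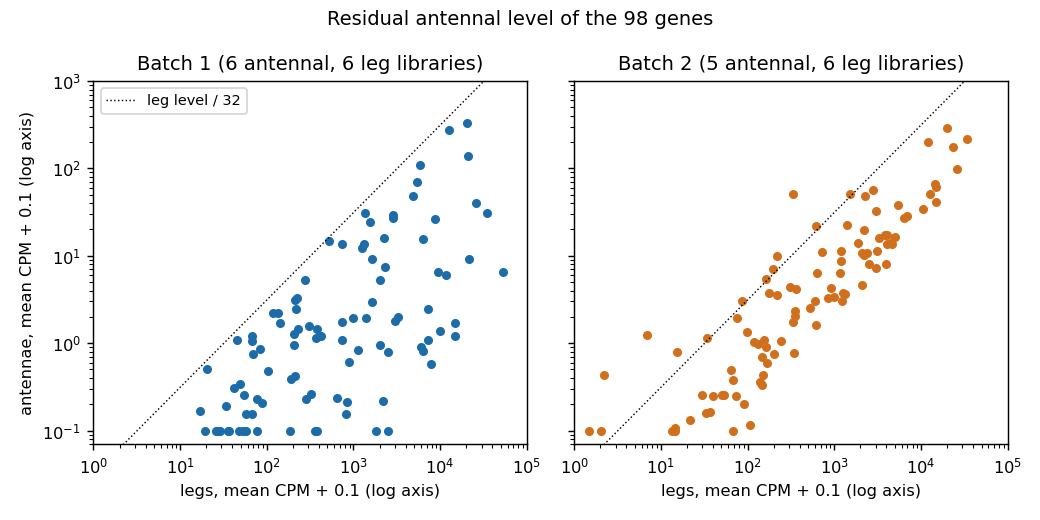
Mean antennal level against mean leg level of the 98 genes in batch 1 (left, blue) and batch 2 (right, orange), in CPM + 0.1 on log axes. The dotted line marks an antennal level of 1/32 of the leg level. Points spread widely at a given leg level in batch 1, with 15 genes without a count on the bottom edge. In batch 2 most form a narrower band, but some lie above the dotted line. Among these is DPOGS209333, whose leg mean was 6.88 CPM in batch 2 against 1621 CPM in batch 1.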

How the data were processed

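The authors deposited raw read counts per gene for 35 libraries, with no scaling, and each library is labelled with an animal number, a sex, a tissue and a batch. Per the submitters' processing notes the tools were limma, featureCounts 1.5.2, HISAT2 2.0.5 and FastQC 0.11.5, and the labels' protocols name a stranded mRNA kit. Not given in the sources used here are genome build, annotation release, strand setting and the treatment of reads with several matches, so genes that overlap or have a near-identical copy are uncertain.

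Counts were divided by library totals to give CPM. Tests used edgeR 4.0.16 in R 4.3.3 (quasi-likelihood, TMM factors, filterByExpr), fitted over all genes within legs or within proboscis with sex and batch as terms, or over both tissues with their tissue interactions. P-values were adjusted by the Benjamini-Hochberg method and called below 0.05. DESeq2 1.42.0 and limma 3.58.1 were alternatives. The procedure was tested on simulated counts. Changes of 2 log2 units were called in 97% to 99% of cases in legs and 70.4% to 73.2% in proboscis. In antennae 48.5% to 51.5% were called, and for the tissue interactions 34.3% (batch) and 41% (sex). Changes of 5 log2 units were called in 100% throughout. The simulation gave every gene the same variability between libraries, the median over genes, so these shares do not cover more variable genes. In no tissue do 0 calls therefore show that moderate differences were absent. Antennae entered no planned test, and their batch comparison was added later. Within a tissue, p-values measure the spread between animals. The main fits over both tissues treated the legs and proboscis of an animal as independent, so their p-values do not measure that spread alone.

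Named members follow written rules: the highest levels, the most even, the nearest to each threshold, runs of identifiers, members without antennal counts, and up to 2 in each direction per comparison. Members, lists and rules were chosen with earlier results of these data known. Tissues come from the same animals, and leg and proboscis deviations from their tissue and batch means correlated across genes with a median of 0.428, above 0.1 in 9 of 12 animals. No library looked like a copy of another (smallest chi-square per gene 27.8).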

Additional observations from a re-analysis of the deposited data

Results flagged for a closer look

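Single libraries stood apart from the others of their tissue and batch in 7 of 70 groups checked, beside a nominal 1 in 20. Groups shared libraries, and the genes flagged were among those named for their values. The number is therefore not a test against chance. DPOGS211795 had 41486 CPM in the legs of female 27, against 12020 to 19367 CPM in the other batch 1 legs. DPOGS207167 had 20197 CPM in the legs of male 15, against 9014 to 13115 CPM. DPOGS207156 had 184 CPM in the legs of male 2, against 33.3 to 57.6 CPM in the other batch 2 legs, and 22.2 CPM in the proboscis of male 15, against 1.52 to 9.26 CPM in batch 1. DPOGS206957 had 473 CPM in the legs of female 1, against 36.3 to 141 CPM in batch 2. DPOGS205005 was low in the proboscis of male 20, at 1069 CPM against 1418 to 1566 CPM in batch 1. DPOGS206364 had 50.3 CPM in the proboscis of female 3, against 0 to 12.6 CPM in batch 2.

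The batch difference of 2 members differed between legs and proboscis by a test of the difference itself, by 8.25 (log2) for DPOGS207541 and 6.24 for DPOGS209333, both with less of a drop in proboscis (edgeR adjusted p = 0.0397 and 0.0464). With the animal as a block neither passed (edgeR adjusted p = 0.234 for both), and leaving out 1 animal ended both calls in 10 of 12 cases.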

How the results depend on the processing

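The rule kept 75 to 97 of the 98 members under 20 other settings. In batch 2 alone it found 83 genes, 75 of them members, and all 8 members with the at least 16-fold lower level in batch 2 legs fell outside it. In batch 1 alone it found 102 genes, 91 of them members. Members called between batches in legs numbered 26 to 44 over 18 alternatives, against 32. Those for batch in proboscis, for sex in either tissue and for sex by tissue stayed at 0 in every alternative run. The animal as a replicate block, possible for the terms that span tissues, moved batch by tissue from 2 members to 0 and left sex by tissue at 0. That count was 6 with DESeq2, 0 to 7 when 1 animal was left out, and 14 without the 3 animals whose proboscis libraries were over 24 M counts, an alternative chosen after seeing the data. Over all genes the term called 8 genes, 23 without the filter, 397 with DESeq2, 2102 without those 3 animals and 0 to 551 without 1 animal. In antennae the members called between batches were 0 with edgeR, 12 with DESeq2 and 0 to 1 without 1 animal. For sex in legs edgeR called 3 genes (1 to 4 in its other settings and without 1 animal) and DESeq2 62. Depth limits low antennal values: 3 counts are 4.83 CPM in the shallowest antennal library and 0.121 to 1.42 CPM in the others.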
